A study of Mus musculus with 15 samples.

Results

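Of the 22063 genes in the expression table, 9 were taken by symbol as transcription factors that set intestinal identity in the epithelium, namely Cdx1, Cdx2, Hnf4a, Hnf4g, Klf4, Klf5, Elf3, Gata6 and Hoxb13. Each symbol matched 1 gene, and all 9 were among the 12917 genes tested. RNA was sequenced from colon of C57BL/6 mice of wild-type genotype in 3 groups of 5 libraries: mice given WMW-H, mice treated with AOM/DSS, and untreated controls. AOM is azoxymethane, a carcinogen acting on the colon, and DSS is dextran sulfate sodium, which injures the colon lining; together they induce colorectal tumours in mice. The series title names Wumei Wan, a herbal formula, and its design text sets WMW-H as the therapy arm beside the tumour model. The labels of the WMW-H libraries give that treatment alone. What dose was given and when, how old the animals were, and what "-H" stands for are not stated in the labels read here. Nor do the labels say that replicates came from separate animals, so the p-values below measure only the spread between these libraries, which may be technical.

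These proteins hold gut epithelium in its fate. CDX1 and CDX2 are caudal-type homeobox factors that start and keep the intestinal programme, and mouse colon that loses CDX2 takes on features of more anterior gut. HNF4A and HNF4G are nuclear receptors that bind many of the same enhancers in differentiated enterocytes and drive brush border and lipid genes. The Kruppel-like factors are often described as an opposed pair, with KLF4 raised in differentiating cells of the upper crypt and goblet cells and KLF5 in cycling cells of the lower crypt. ELF3 is an epithelial ETS factor of differentiation and inflammatory response, GATA6 is a zinc finger factor of gut endoderm active in colonic crypts, and HOXB13 is the last gene of the HoxB cluster, expressed in hindgut derivatives such as distal colon, rectum and prostate.

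The libraries held 16300000 to 21100000 fragments as read from the steps in their low values. Within groups, Pearson correlations over the tested genes lay between 0.992 and 0.995. Replicate 3 of WMW-H stood apart: its variance against the other replicates of that group was 5.16 to 6.23 times the counting error in the median gene, against 1.97 to 2.42 for the other pairs. The label "colon epithelial cells" was set against marker genes. The 12 pan-epithelial genes summed to 1.16%, 1.44% and 1.34% of the FPKM total (fragments per kilobase of transcript scaled to depth, the authors' unit) in WMW-H, AOM/DSS and Control, and the 11 colonocyte genes to 1.13%, 0.958% and 1.32%. Cells outside the epithelium were also present, since 8 smooth muscle genes summed to 0.407%, 0.422% and 0.404%, 9 fibroblast genes to 0.0888%, 0.0806% and 0.0489%, and 14 leukocyte genes to 0.0717%, 0.0947% and 0.0409%. Genes of pancreatic acinar cells, 18 of them, took 2.18% in WMW-H, 1.29% in AOM/DSS and 5.69% in Control. In bulk RNA of this kind, fewer cells of a type and less RNA per cell cannot be told apart, and that holds for every value of the 9 factors.

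Promoter sequence from RefSeq (build GRCm38.p6) was available in the table used for 4 of the 9 genes. Cdx2, Klf4 and Elf3 are shown because their libraries did not overlap between WMW-H and AOM/DSS or between AOM/DSS and Control. Each line gives the 250 bases before the annotated start, 5′ to 3′ on the gene's strand, with every match to a short motif of the families studied here in capitals. The motifs, searched on both strands, were TTTAT for CDX, CAAAG for HNF4, CACCC for KLF, AGATAA for GATA and GGAAGT for ETS factors, and no 2 of the matches overlapped.
Cdx2 (chr5:147307250-147307499, minus strand): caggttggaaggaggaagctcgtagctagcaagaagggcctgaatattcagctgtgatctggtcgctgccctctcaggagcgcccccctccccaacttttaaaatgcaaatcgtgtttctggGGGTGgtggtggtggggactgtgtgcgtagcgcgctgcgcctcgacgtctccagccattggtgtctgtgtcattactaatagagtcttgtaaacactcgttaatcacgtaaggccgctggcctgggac
Klf4 (chr4:55532476-55532725, minus strand): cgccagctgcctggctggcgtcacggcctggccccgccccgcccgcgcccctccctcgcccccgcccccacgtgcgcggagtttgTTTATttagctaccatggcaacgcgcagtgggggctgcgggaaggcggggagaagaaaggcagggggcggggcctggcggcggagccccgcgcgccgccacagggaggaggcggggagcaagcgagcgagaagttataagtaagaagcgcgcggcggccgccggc
Elf3 (chr1:135258473-135258722, minus strand): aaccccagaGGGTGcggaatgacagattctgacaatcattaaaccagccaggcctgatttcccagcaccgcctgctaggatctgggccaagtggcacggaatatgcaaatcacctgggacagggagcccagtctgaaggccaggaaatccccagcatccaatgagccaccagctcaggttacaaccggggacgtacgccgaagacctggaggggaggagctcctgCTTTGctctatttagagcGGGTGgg

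The Cdx2 promoter held a KLF match at -128 (GGGTG, the reverse complement of CACCC), counted from the annotated start to the first base of the match on the gene's strand. The Klf4 promoter held a CDX match at -165. The Elf3 promoter held KLF matches at -241 and -7 and an HNF4 match at -25. Such short motifs are common: over 32851 promoters of the same length, 37.3% held the CDX motif, 48.6% the HNF4 motif, 52.0% the KLF motif, 10% the GATA motif and 19.7% the ETS motif. A match is a description of the letters in this window and not a bound site.

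Levels of the 9 factors spanned a wide range, and FPKM is scaled by length, so that genes can be set side by side. Hnf4a, Elf3, Cdx1 and Klf4 were the most abundant in each of the 3 groups, and Hnf4g and Gata6 the least. Hnf4a stood above 97.6%, 97.9% and 97.9% of tested genes in WMW-H, AOM/DSS and Control, whereas Hnf4g stood above 31.6%, 26.8% and 48.5%. In WMW-H the order from the top was Hnf4a, Elf3, Klf4, Cdx1, Cdx2, Klf5, Hoxb13, Gata6 and Hnf4g, with overlapping libraries for the neighbours Cdx2 and Klf5 and for no other neighbours. In AOM/DSS, Elf3 led, followed by Hnf4a, Cdx1, Klf4, Hoxb13, Klf5, Cdx2, Gata6 and Hnf4g, with overlap between Hoxb13 and Klf5 only. In Control the order was Hnf4a, Elf3, Cdx1, Klf4, Cdx2, Klf5, Hoxb13, Gata6 and Hnf4g, and no neighbours overlapped. Cdx2 thus had rank 5 in WMW-H and in Control and rank 7 in AOM/DSS, where Hoxb13 had rank 5.

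**Figure D1:**
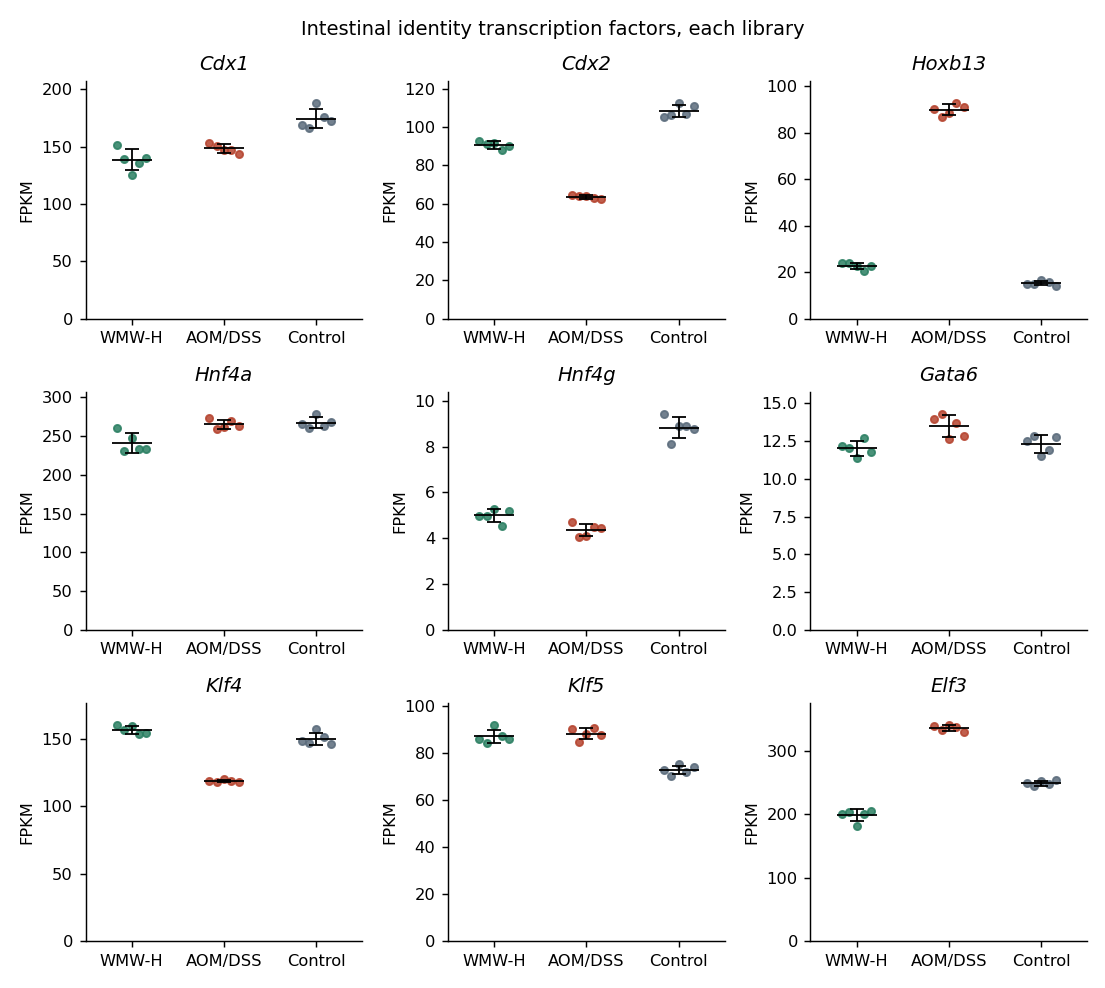
FPKM of the 9 factors in each library (points), with the mean and SD of each group of 5 libraries (bars); every vertical axis starts at 0 and has its own scale. Hoxb13 is between 86.8 and 93.0 FPKM in the AOM/DSS libraries and at most 24.0 FPKM elsewhere, and Cdx2 is lowest in AOM/DSS, at 62.2 to 64.8 FPKM.

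AOM/DSS against Control asks how the tumour model differs from untreated colon. Of the 9 factors, Klf5, Elf3, Gata6 and Hoxb13 rose, which is 4, and Cdx1, Cdx2, Hnf4g and Klf4 fell, which is also 4 (limma on log2(FPKM + 1), adjusted p under 0.05). Over all tested genes, 45.5% were called higher and 20.6% lower in AOM/DSS, or 66.1% in either direction, so 8 calls among 9 genes stand in a table where most genes were called. The groups did not overlap for 7 of the 9, against 52.9% of all tested genes. The median change of the 9 was -0.01 and that of all tested genes 0.12 on the log2 scale. On that scale Hoxb13 alone of the 9 passed 2-fold, a size reached upward by 4.16% and downward by 1.91% of tested genes.

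WMW-H against AOM/DSS asks what the treatment changed relative to the model. Cdx2, Hnf4g and Klf4 rose, 3 in all, and Cdx1, Hnf4a, Elf3, Gata6 and Hoxb13 fell, 5 in all. Cdx2, Klf4, Elf3 and Hoxb13 kept direction and call in all 24 other settings of the processing tried. Hnf4g kept them in 23, Hnf4a in 21, Gata6 in 20 and Cdx1 in 9. Of all tested genes, 25.9% were called higher and 40.9% lower, or 66.8% together. The libraries did not overlap for 4 of the 9 (Cdx2, Klf4, Elf3 and Hoxb13), against 51.2% of all tested genes. The median change of the 9 was -0.10, and of all tested genes -0.07. Less that median of all tested genes, Cdx1, Hnf4a and Gata6 changed by only -0.03, -0.06 and -0.08. Hoxb13 alone fell by more than 2-fold, as did 1.93% of tested genes, and none of the 9 rose that far, as did 0.836%.

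WMW-H against Control asks how far treated colon still differed from untreated. Klf4, Klf5 and Hoxb13 were higher in WMW-H, 3 genes, and Cdx1, Cdx2, Hnf4a, Hnf4g and Elf3 were lower, 5 genes. Among all tested genes 35.4% were called higher and 24.1% lower, or 59.5% together. No overlap was seen for 7 of the 9, against 42.3% of tested genes, the exceptions being Klf4 and Gata6. The median change of the 9 was -0.15 and that of all tested genes 0.05. None of the 9 passed 2-fold on this scale, which 1.71% of tested genes did upward and 0.914% downward. The 3 comparisons share libraries, so a factor's values in them are not separate pieces of evidence.

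**Figure D2:**
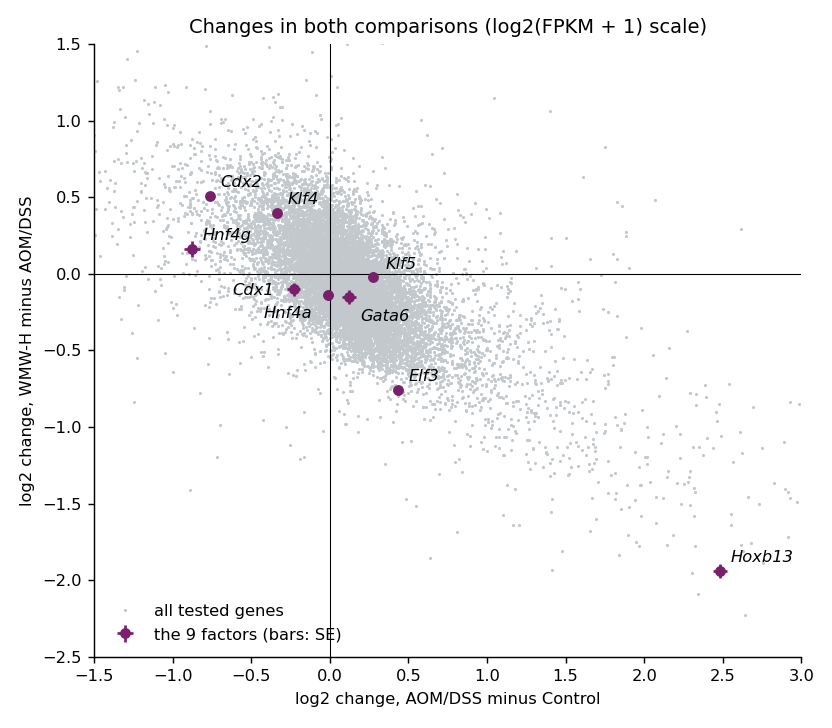
Fitted log2 changes of all tested genes (grey points) and of the 9 factors (purple, bars are SE), with AOM/DSS minus Control on the horizontal axis and WMW-H minus AOM/DSS on the vertical axis. Both axes use the AOM/DSS libraries, so they are not independent, and 197 genes lie outside the drawn range; Hoxb13 sits far to the lower right, at 2.48 and -1.94.

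Cdx2 (ENSMUSG00000029646), the master regulator of the intestinal programme, was lower in AOM/DSS than in either other group. It measured 92.8, 91.2, 91.9, 87.8 and 89.9 FPKM in WMW-H libraries, 64.8, 64.0, 63.8, 62.9 and 62.2 FPKM in AOM/DSS libraries, and 105, 107, 113, 107 and 111 FPKM in Control libraries. The 3 groups did not overlap, with WMW-H in the middle. Means were 90.7 ± 1.93, 63.6 ± 0.995 and 109 ± 3.22 FPKM (SD, n = 5 each) in WMW-H, AOM/DSS and Control. In AOM/DSS, Cdx2 fell to 58.6% of Control, a log2 change of -0.76 (SE 0.024, limma adjusted p = 2.5e-14). In WMW-H it stood at 143% of AOM/DSS (log2 change 0.51, adjusted p = 1.49e-11) and at 83.6% of Control (log2 change -0.26, adjusted p = 1.24e-07).

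Its paralogue Cdx1 (ENSMUSG00000024619), which acts with CDX2 and is itself a target of WNT signalling in the crypt, did not share the middle position of WMW-H. Cdx1 measured 151, 139, 126, 136 and 140.1 FPKM in WMW-H, 153, 151, 147, 147 and 144 FPKM in AOM/DSS, and 169, 167, 188, 176 and 173 FPKM in Control. Every Control library lay above every library of the other groups, and WMW-H and AOM/DSS overlapped. Means were 138 ± 9.20, 148 ± 3.63 and 174 ± 8.55 FPKM (SD, n = 5 each). In log2 units, Cdx1 fell by 0.23 in AOM/DSS (SE 0.041, adjusted p = 1.15e-04) and by 0.33 in WMW-H (adjusted p = 2.98e-06), both relative to Control. The step between WMW-H and AOM/DSS was small, -0.10 (95% interval -0.19 to -0.01, adjusted p = 0.0385). Its direction and call were kept in only 9 of 24 other settings. That call was lost without WMW-H replicate 2 (adjusted p = 0.0514), 3 (0.105) or 4 (0.0731), or without AOM/DSS replicate 1 (0.0862), 2 (0.0721), 3 (0.0545) or 4 (0.0548), and the sign turned when libraries were centred on pan-epithelial genes (0.40 with 12 genes, 0.15 with 10).

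Hnf4g (ENSMUSG00000017688), the low-abundance HNF4 partner, was lower in both AOM/DSS and WMW-H than in Control. It measured 4.99, 4.99, 5.27, 4.54 and 5.20 FPKM in WMW-H, 4.70, 4.04, 4.12, 4.47 and 4.45 FPKM in AOM/DSS, and 9.43, 8.13, 8.91, 8.91 and 8.75 FPKM in Control. All Control libraries lay above 8 FPKM and all others below 6 FPKM, while the WMW-H and AOM/DSS ranges overlapped at their edges. In AOM/DSS it fell to 49.3% of Control by group means (log2 change on the FPKM + 1 scale -0.88, SE 0.052, adjusted p = 1.31e-10). In WMW-H it fell to 56.6% of Control (-0.71, adjusted p = 4.21e-09). WMW-H was above AOM/DSS by 0.16 (95% interval 0.05 to 0.27, adjusted p = 0.0102), a call not kept when libraries were rescaled to TPM (adjusted p = 0.0507).

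Hnf4a (ENSMUSG00000017950), which encodes the abundant receptor of the pair, changed little in FPKM. Values were 260.0, 231, 248, 234 and 233 FPKM in WMW-H, 273, 259, 262, 269 and 263 FPKM in AOM/DSS, and 265, 260.4, 279, 263 and 269 FPKM in Control. AOM/DSS and Control overlapped widely, and 4 of the 5 WMW-H libraries lay below both. AOM/DSS minus Control was -0.01 on the log2 scale (95% interval -0.08 to 0.05, adjusted p = 0.774). This small value was 0.04 in TPM, 0.02 after quantile normalization and 0.00 without Control replicate 3, and it passed the test below 0 with size factors (-0.14, adjusted p = 0.00141) and with libraries centred on 10 (-0.13, adjusted p = 0.00272) or 12 pan-epithelial genes (-0.68, adjusted p = 7.0e-12). WMW-H fell by 0.14 against AOM/DSS (adjusted p = 9.51e-04) and by 0.15 against Control (adjusted p = 6.07e-04). The first of these turned to 0.37 and 0.12 when centred on 12 and on 10 pan-epithelial genes, and the second was lost with 10 (-0.0054, adjusted p = 0.893). Hnf4a is transcribed from separate promoters into different isoforms, and a value per gene does not separate them.

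Klf4 (ENSMUSG00000003032), the factor of differentiating and goblet cells, was lowest in AOM/DSS. It measured 160.4, 157, 159, 154 and 154 FPKM in WMW-H, 119, 118, 120.0, 119 and 118 FPKM in AOM/DSS, and 148, 147, 157, 152 and 147 FPKM in Control. Every AOM/DSS library lay below every other library, and WMW-H and Control overlapped. Klf4 fell in AOM/DSS to 79.1% of Control (log2 change -0.33, SE 0.022, adjusted p = 6.4e-10) and stood in WMW-H at 132% of AOM/DSS (0.40, adjusted p = 1.05e-10). The excess of WMW-H over Control, 0.06 on the log2 scale (95% interval 0.02 to 0.11, adjusted p = 0.0216), was lost without WMW-H replicate 1 (adjusted p = 0.0563), Control replicate 2 (0.0557) or Control replicate 5 (0.0595). It turned to -0.10 with libraries centred on 12 pan-epithelial genes, and its direction and call were kept in 15 of 24 other settings.

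Klf5 (ENSMUSG00000005148), the factor of cycling crypt cells, was higher in both WMW-H and AOM/DSS than in Control. It measured 86.0, 84.6, 92.1, 87.4 and 85.9 FPKM in WMW-H, 90.2, 84.6, 88.3, 90.7 and 88.0 FPKM in AOM/DSS, and 73.0, 70.2, 75.3, 72.1 and 74.0 FPKM in Control. All Control libraries lay below the others, which overlapped throughout. Klf5 rose in AOM/DSS to 121% of Control (0.27, SE 0.028, adjusted p = 1.83e-07), although with libraries centred on 12 pan-epithelial genes the sign turned to -0.39. In WMW-H it rose to 119.6% of Control (log2 change 0.25, adjusted p = 6.88e-07). WMW-H minus AOM/DSS was -0.02 (95% interval -0.08 to 0.04, adjusted p = 0.564), with the opposite sign under size factors (0.06), quantile normalization (0.02) and centring on 12 (0.48) or 10 (0.24) pan-epithelial genes.

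Ratios within a library do not depend on how that library was scaled, and they show only that a pair changed unequally. The Klf4 to Klf5 ratio was 1.87, 1.85, 1.73, 1.76 and 1.80 in WMW-H, 1.32, 1.40, 1.36, 1.31 and 1.34 in AOM/DSS, and 2.03, 2.09, 2.09, 2.10 and 1.98 in Control. No group overlapped another. The log2 ratio differed by -0.61 in AOM/DSS relative to Control, by 0.42 in WMW-H relative to AOM/DSS and by -0.19 in WMW-H relative to Control. Each gave p = 0.00794 in an exact two-sided permutation test of 5 against 5 libraries, which is the smallest p this design can give, and 0.00893 after adjustment over the 9 ratio tests.

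The Cdx1 to Cdx2 ratio set AOM/DSS apart. It averaged 1.53 ± 0.0974 in WMW-H, 2.34 ± 0.026 in AOM/DSS and 1.61 ± 0.0513 in Control (SD, n = 5 each). Its log2 value was higher by 0.54 in AOM/DSS than in Control and differed by -0.62 between WMW-H and AOM/DSS (exact permutation p = 0.00794 and adjusted p = 0.00893 for both). WMW-H and Control overlapped, with a difference of -0.08 (exact permutation p = 0.111), which passed the threshold without WMW-H replicate 1 (-0.10, adjusted p = 0.0238).

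The Hnf4a to Hnf4g ratio averaged 48.4 ± 3.26 in WMW-H, 61.1 ± 2.68 in AOM/DSS and 30.3 ± 1.55 in Control (SD, n = 5 each), and no group overlapped another. Relative to Control the ratio was 2.01-fold in AOM/DSS (log2 difference 1.01) and 1.59-fold in WMW-H (0.67), and WMW-H differed from AOM/DSS by -0.34. All 3 differences reached exact permutation p = 0.00794 and adjusted p = 0.00893.

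**Figure D3:**
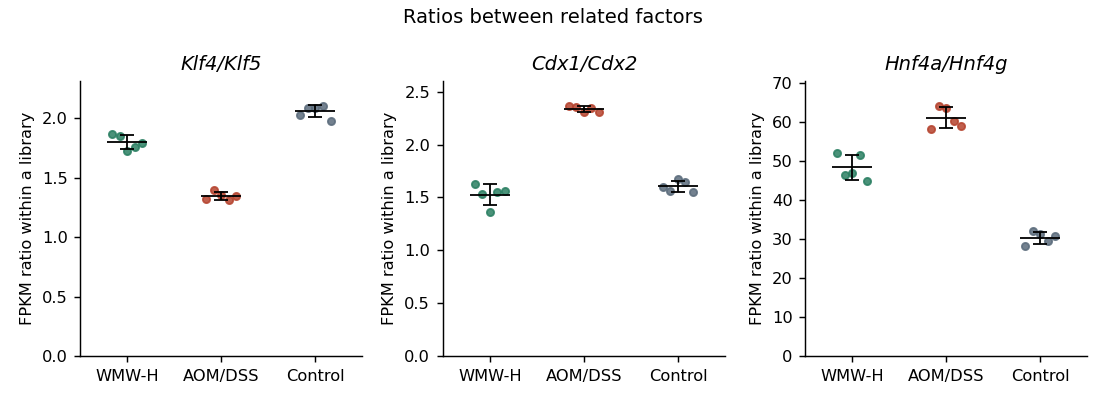
FPKM ratio of Klf4 to Klf5, of Cdx1 to Cdx2 and of Hnf4a to Hnf4g in each library (points), with the mean and SD of 5 libraries (bars); axes start at 0. The 3 groups are separate for Klf4/Klf5 and Hnf4a/Hnf4g, while for Cdx1/Cdx2 the AOM/DSS libraries, near 2.34, stand above overlapping WMW-H and Control libraries.

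Elf3 (ENSMUSG00000003051), the epithelial ETS factor, was highest in AOM/DSS and lowest in WMW-H. It measured 199.9, 204, 182, 201 and 205 FPKM in WMW-H, 338, 333, 341, 338 and 329 FPKM in AOM/DSS, and 249, 244, 252, 247 and 254 FPKM in Control. The 3 groups did not overlap, and WMW-H lay below Control rather than between the others. Replicate 3 of WMW-H was the lowest library. Elf3 rose in AOM/DSS to 135% of Control (log2 change 0.43, SE 0.028, adjusted p = 4.69e-10), but the sign turned to -0.23 with libraries centred on 12 pan-epithelial genes. In WMW-H it fell to 59.0% of AOM/DSS (-0.76, adjusted p = 5.12e-13) and to 79.6% of Control (-0.33, adjusted p = 3.01e-08). Without replicate 3 both falls still passed the test.

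Beside Elf3, immediate early genes, which answer to tissue handling as well as to signalling, moved in the same direction. Of 12 tested, 9 rose and 0 fell in AOM/DSS against Control, where 45.5% of all tested genes were called higher and 20.6% lower, with Jun at 1.08 and Ier3 at 1.68 on the log2 scale. In WMW-H against AOM/DSS, 0 rose and 10 fell (25.9% and 40.9% of all tested genes), with Junb at -0.63 and Atf3 at -0.80. The counts of 0 were 0 also at unadjusted p under 0.05 in limma and in the exact rank test. Centred on 12 pan-epithelial genes, the splits became 2 rising and 9 falling, and 5 rising and 5 falling. Their summed level was 0.0493% of the FPKM total in WMW-H (0.0484% to 0.0509%), 0.0746% in AOM/DSS (0.0736% to 0.0754%) and 0.0490% in Control (0.0474% to 0.05%), and their part in the Elf3 result was not tested. The ETS relatives did not move alike: Ehf fell by 0.69 and Spdef, the goblet cell factor, fell by 1.252 in AOM/DSS against Control, while Elf4 had a log2 change of 0.23. Elf2 averaged 17.1 FPKM in AOM/DSS and 14.8 in Control, and Elf1 averaged 23.4 and 23.6 FPKM.

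Gata6 (ENSMUSG00000005836) was nearly level. It ranged from 11.4 to 12.7 FPKM in WMW-H (median 12.0), from 12.6 to 14.3 in AOM/DSS (median 13.7) and from 11.5 to 12.9 in Control (median 12.5). Every pair of groups overlapped. AOM/DSS was above Control by 0.12 (95% interval 0.03 to 0.22, adjusted p = 0.0211), a call lost without AOM/DSS replicate 1 (0.0519) or 2 (0.0613) or Control replicate 3 (0.0605) or 4 (0.05003), and of opposite sign after quantile normalization (-0.03) and centring on 12 pan-epithelial genes (-0.54). WMW-H fell by 0.15 against AOM/DSS (adjusted p = 0.00609), with the sign turned by centring on 12 (0.35) or 10 (0.10) pan-epithelial genes. WMW-H minus Control was -0.03 (95% interval -0.12 to 0.07, adjusted p = 0.6), and 0.11 with 10 pan-epithelial genes. Its relatives Gata5 and Gata2, both scarce, rose in AOM/DSS by 1.45 and 1.52; Gata5 averaged 1.22 FPKM in WMW-H, 3.83 in AOM/DSS and 0.773 in Control, and passed the filter on low values only through AOM/DSS.

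Hoxb13 (ENSMUSG00000049604), the posterior HOX factor, showed the largest change of the 9 in each comparison with AOM/DSS. It measured 24.0, 23.9, 22.5, 20.4 and 22.8 FPKM in WMW-H, 90.1, 86.8, 88.6, 93.0 and 91.3 FPKM in AOM/DSS, and 14.7, 15.01, 16.8, 15.7 and 14.2 FPKM in Control. No group overlapped another, and the lowest AOM/DSS library lay far above the highest WMW-H library. Hoxb13 in AOM/DSS was 5.88-fold Control (log2 change 2.48, SE 0.046, adjusted p = 1.48e-17), a change larger in size than that of 99.0% of tested genes. It fell in WMW-H to 25.2% of AOM/DSS (-1.94, adjusted p = 1.23e-15) and stood at 148% of Control (0.54, adjusted p = 3.17e-08). These directions and calls held under every scaling tried, within every set of 14 libraries.

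Genes of male accessory glands, among which the prostate is known to express Hoxb13, were high in the same libraries. The 11 such genes in the table summed to 0.000449% of the FPKM total in WMW-H (0 to 0.000808%), 0.522% in AOM/DSS (0.513% to 0.538%) and 0.000369% in Control (0 to 0.000658%). The 8 that were tested passed the filter on low values only through the AOM/DSS libraries, since 0 of them would have passed without those, so their being higher there was fixed by the filter. Pbsn, the prostate secretory gene probasin, averaged 0.011 FPKM in WMW-H, 30.9 in AOM/DSS and 0.0288 in Control. The part of these genes in the AOM/DSS level of Hoxb13 was not tested.

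The other HOX genes gave a different picture from Hoxb13. Of 38 in the table, 19 were tested. In AOM/DSS against Control 3 rose (Hoxd13, Hoxa9 and Hoxa10) and 7 fell, where 45.5% of all tested genes were called higher and 20.6% lower. Hoxd13, at most 0.202 FPKM in Control libraries, could pass the filter on low values only by being high in another group. Among those that fell were Hoxb3 by 0.76 and Hoxb8 by 0.75 on the log2 scale. Under size factors, quantile normalization or centring on 10 pan-epithelial genes 12 fell, and with 12 such genes 17 fell and 2 rose. Their median change was -0.15, against 0.12 for all tested genes. In WMW-H against AOM/DSS, where Hoxb13 fell, 12 of the 19 rose and 0 fell, led by Hoxb3 (0.98), Hoxb7 (0.84), Hoxd8 (0.69) and Hoxa11 (0.45). Of all tested genes, 25.9% were called higher there and 40.9% lower. With another scaling 11 to 19 rose and 0 or 1 fell, and at unadjusted p under 0.05 in limma, as in the exact rank test, 0 fell. In WMW-H against Control, 11 rose, among them Hoxd13 with the same limit, and 3 fell. Of all tested genes, 35.4% were called higher in that comparison and 24.1% lower. With libraries centred on 12 pan-epithelial genes, 3 rose and 5 fell.

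Among genes of the same paralogue group, Hoxd13 rose in AOM/DSS as Hoxb13 did but did not fall in WMW-H. It averaged 4.75 ± 0.499 FPKM in WMW-H, 3.24 ± 0.396 in AOM/DSS and 0.166 ± 0.0405 in Control (SD, n = 5 each), so it passed the filter on low values through the first 2 groups. Its log2 changes were 1.86 in AOM/DSS against Control, 0.44 in WMW-H against AOM/DSS and 2.30 in WMW-H against Control. Hoxa13 averaged 15.3, 12.1 and 12.6 FPKM in WMW-H, AOM/DSS and Control, with a log2 change of -0.06 in AOM/DSS against Control (adjusted p = 0.338) and a rise of 0.32 in WMW-H against AOM/DSS. Hoxb9, the nearest tested gene of the HoxB cluster, averaged 23.6, 21.5 and 23.9 FPKM.

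**Figure D4:**
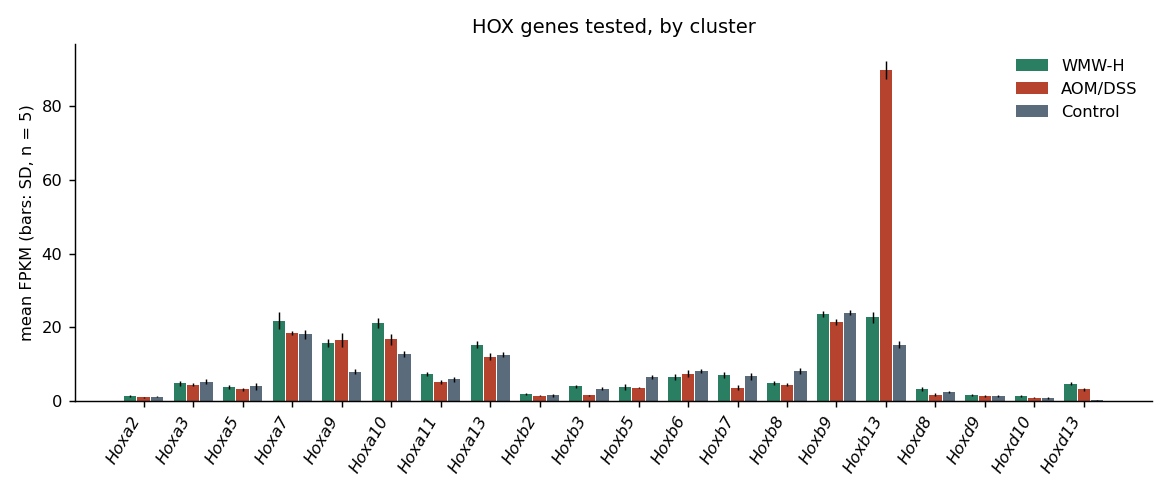
Mean FPKM of Hoxb13 and of the 19 other tested HOX genes in WMW-H, AOM/DSS and Control (bars from 0, error bars are SD over 5 libraries), ordered by cluster. Hoxb13 in AOM/DSS, at 90.0 FPKM, stands above every other bar, and the remaining genes stay below 30 FPKM in all groups.

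Of 24 genes that CDX and HNF4 factors are known to bind or activate in the intestine, 22 were tested. In AOM/DSS against Control, 17 fell and 3 rose, where 20.6% of all tested genes were called lower and 45.5% higher. The median change was -0.37 against 0.12 for all tested genes. The fall included Slc26a3, the chloride anion exchanger (-0.68), Slc9a3, a sodium proton exchanger (-0.66), Fabp2, an intracellular fatty acid binding protein (-0.88), and Car1, a colonic carbonic anhydrase (-0.42). Muc13, Tff3 and Cideb rose, by 0.44, 0.44 and 0.20. The share that fell lay between 15 and 22 of 22 across scalings. Fabp2 averaged 133 ± 2.60 FPKM in WMW-H, 84.1 ± 3.97 in AOM/DSS and 156 ± 6.19 in Control, in the same order as Cdx2. The fall in AOM/DSS was not particular to these targets. Of the 11 colonocyte genes, 10 fell and 1 rose, with a median change of -0.44. Of 8 tested genes of small-intestinal enterocytes, 7 fell and 1 rose, with a median change of -0.56. The target and colonocyte lists share members, among them Slc26a3, Slc9a3 and Car1.

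In WMW-H against AOM/DSS these genes split. Of the 22, 11 rose and 8 fell, where 25.9% of all tested genes were called higher and 40.9% lower. The median change was 0.08 against -0.07 for all tested genes. Mep1a, a brush border metalloprotease, rose by 0.57, Fabp2 by 0.66 and Car1 by 0.33, while Slc9a3 fell by a further 0.38 and Slc26a3 by 0.15. The split itself moved with the scaling, from 11 rising and 9 falling in TPM to 22 rising and 0 falling with libraries centred on 12 pan-epithelial genes. Against Control, 16 were lower and 5 higher in WMW-H, with Slc9a3 at -1.03 and Slc26a3 at -0.82. Of all tested genes, 24.1% were called lower there and 35.4% higher. The 11 colonocyte genes also split in WMW-H against AOM/DSS, with 6 rising and 4 falling. Against Control, 8 of those 11 were lower and 1 higher in WMW-H.

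Among 25 other transcription factors of gut epithelium, 24 were tested, and in AOM/DSS against Control 11 rose and 10 fell, where 45.5% of all tested genes were called higher and 20.6% lower. The strongest by p were Spdef (-1.252), Nr1h4, the bile acid receptor FXR (-1.03), Ehf (-0.69) and Gata5 (1.45). Gata5 passed the filter on low values only through AOM/DSS, so its being high there was a condition of its being tested. Nr1h4 averaged 37.1 ± 0.971 FPKM in WMW-H, 15.8 ± 0.585 in AOM/DSS and 33.2 ± 1.27 in Control, so WMW-H stood above both other groups. Spdef averaged 58.5 ± 1.298, 53.5 ± 1.2955 and 129 ± 5.11 FPKM, so WMW-H stayed near AOM/DSS. In WMW-H against AOM/DSS, 8 rose and 13 fell, where 25.9% of all tested genes were called higher and 40.9% lower. Nr1h4 was at 1.18, Ehf at 0.44, Gata5, with the same limit, at -1.13 and Ascl2, a stem cell factor, at -0.96. Against Control 8 were higher and 12 lower in WMW-H, where 35.4% of all tested genes were called higher and 24.1% lower. The split moved with the scaling also here, and with libraries centred on 12 pan-epithelial genes it was 1 rising and 18 falling in AOM/DSS against Control, and 18 rising and 3 falling in WMW-H against AOM/DSS.

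Genes of like pattern were sought in the plane of the changes AOM/DSS minus Control and WMW-H minus AOM/DSS, over the 15 libraries and 8805 tested genes of at least 5 FPKM, by Euclidean distance in log2 units. Closest to Cdx2 were Slc3a1 (0.021), Tceal8 (0.051) and Ptprn2 (0.058), with 11 genes within 0.1. Hnf4g had Ly6c2, Calb2 and Sp110 as its nearest genes and 6 within 0.1. Elf3 had Pkd1, Klf16 and Atf3 and 19 within 0.1. Most genes changed little, so a fixed radius holds few genes around a large change and many around a small one. These counts therefore largely restate the size of each change. Gata6, with small changes, had 580 genes within 0.1, with Coa4, Eif3i and Bud13 the closest. Hnf4a had 401 such genes (closest Cox4i1, Ufc1 and Pafah2), Klf5 had 388 (Wdr55, Cstb and B3galnt2), Cdx1 had 136 (Osgin1, Chdh and Car4) and Klf4 had 123 (Vps54, Rab2a and Bet1). Hoxb13 had 0 genes within 0.1, and its nearest were Smpx (0.178), Slc37a2 (0.220) and Tenm4 (0.312).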

How the data were processed

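The values were FPKM deposited by the authors in 1 table of 22063 genes for 15 colon RNA libraries. Per the labels' protocols, RNA was selected with oligo(dT). Of tools, the submitters' processing notes list RSEM, StringTie 1.3.1, HISAT2, Bowtie2 2.2.8 and fastp 0.18.0, with no roles. Which genome build and annotation were used is not given in the sources used here. FPKM totals differed between libraries (507895 to 535410), so no common total had been imposed.

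An FPKM built from few fragments moves in steps of 1 fragment, and depth was found from those steps. Over 3328 single-transcript genes of 800 to 6000 nucleotides, 90.4% of 6170 low values were whole fragments to within 0.1, against 20% by chance. The filter kept 12917 genes that reached 1 FPKM in 5 or more libraries. They were fitted as log2(FPKM + 1) with limma 3.58.1 in R 4.3.3, with all libraries in 1 fit and a trend. Tests were two-sided, adjusted by Benjamini-Hochberg over all tested genes, at a threshold of 0.05. This scale understates the changes of low genes such as Hnf4g. Ratios and percentages of another group's mean use FPKM itself, and intervals are 95%. No count model was used, since whole fragments were not recovered for multi-transcript genes.

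The members and gene lists were chosen with earlier results of these data known. All members are named; of each list described, up to 4 tested genes with the smallest p are named, with called genes going the other way, and 3 genes of like pattern per member. Hoxd13, Hoxa13, Hoxb9, Hoxa10, Elf1, Elf2, Elf4, Pbsn and Gata2 where outside that rule were named for kinship or as markers after their values were seen. Alternatives covered pseudocounts, filters, scalings, tests, a replicate block and leaving out each library. Centring on 10 of the 12 pan-epithelial genes and the list counts under each scaling were added after seeing the data. Same-numbered replicates did not deviate together. Figures were drawn with matplotlib 3.10.9.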

Additional observations from a re-analysis of the deposited data

Results flagged for a closer look

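Elf3 in WMW-H replicate 3 was 181.5 FPKM, far from the other 4 WMW-H libraries at 199.9 to 204.6 FPKM: the gap below them was 0.795 of the whole range of the group, above the critical value of 0.71 for 5 values. Of 36 groups of 5 values examined (9 factors and 3 ratios in 3 groups), this was the only one, and chance alone gives about 1 in 20.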

How the results depend on the processing

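In 216 results of the 9 factors under another filter, pseudocount or test, 208 kept direction and call and 8 lost the call. Under other scalings it was 128 of 162, and with 1 library left out 255 of 270. Cdx2 and Hoxb13 kept direction and call throughout in all 3 comparisons. With size factors 5 factors were called between WMW-H and AOM/DSS in place of 8. Signs turned as follows. In AOM/DSS against Control, Hnf4a was 0.039 in TPM, 0.019 under quantile normalization and from -0.022 to 0.0046 with 1 library left out (above 0 only without Control replicate 3), and Gata6 was -0.027 under quantile normalization. In WMW-H against AOM/DSS, Klf5 was 0.058 with size factors and 0.019 under quantile normalization. Centring on 12 pan-epithelial genes gave Klf5 -0.39, Elf3 -0.23 and Gata6 -0.54 in AOM/DSS against Control, Cdx1 0.40, Hnf4a 0.37, Klf5 0.48 and Gata6 0.35 in WMW-H against AOM/DSS, and Klf4 -0.10 in WMW-H against Control. With 10 of these genes, WMW-H against AOM/DSS gave Cdx1 0.15, Hnf4a 0.12, Klf5 0.24 and Gata6 0.10, and WMW-H against Control gave Gata6 0.11. The cause was not tested.

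The share of all calls that were higher was 68.9%, 38.8% and 59.5% in AOM/DSS against Control, WMW-H against AOM/DSS and WMW-H against Control. It was 74.4%, 32.6% and 59.1% in TPM, 50.5%, 48.7% and 51.2% with size factors, 47.5%, 49.6% and 48.0% under quantile normalization, 6.21%, 94.3% and 28.9% centred on 12 pan-epithelial genes, 50.1%, 77.2% and 82.1% on 10, and 68.0%, 33.0% and 50.1% in TPM outside pancreatic, accessory gland and Paneth genes.

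Replicate numbers did not pair the libraries: correlations of deviations between same-numbered libraries ran from -0.0472 to 0.0298, and 2 of 15 libraries correlated best with their own number. With the replicate block, 8, 7 and 8 factors were called in the 3 comparisons, Cdx1 being lost between WMW-H and AOM/DSS (adjusted p = 0.0616). Ratio tests with this block are exact sign-flip permutations of 5 pairs and can reach only p = 0.0625 (adjusted 0.0703), so none passed; the differences stayed at -0.61, 0.42 and -0.19 for Klf4 to Klf5, 0.54 and -0.62 for Cdx1 to Cdx2, and 1.01, -0.34 and 0.67 for Hnf4a to Hnf4g. Leaving out 1 library, Cdx1 to Cdx2 in WMW-H against Control ran from -0.10 to -0.037, and 7 or 8 factors were called in each comparison. Without WMW-H replicate 3, 7 were called against AOM/DSS and 8 against Control.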

Other observations

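Most genes of stomach and foregut were low. Of 15 in the table, 4 were tested, and the other 11 averaged under 1 FPKM in every group, among them Sox2, a transcription factor of foregut, at 0.347, 0.273 and 0.150 FPKM in WMW-H, AOM/DSS and Control. Of the 4, Ctse, Gkn3 and Muc6 rose in AOM/DSS against Control, by 1.39, 1.33 and 1.05 on the log2 scale, and fell in WMW-H against AOM/DSS, by 0.70, 0.93 and 0.70. Of the 4, 2 would have passed the filter without the AOM/DSS libraries; Gkn3 and Muc6 would not, so their being high there was fixed by the filter. Ctse, which encodes cathepsin E, averaged 18.9, 31.3 and 11.3 FPKM. Tff2, a trefoil peptide of stomach mucus, went the other way, with 24.5, 16.6 and 78.5 FPKM. These directions were the same under all scalings tried.

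Other Kruppel-like factors were tested in 11 of 15 cases. In AOM/DSS against Control 7 rose, led by Klf10 (0.77), and 3 fell, where 45.5% of all tested genes were called higher and 20.6% lower. In WMW-H against AOM/DSS 3 rose, among them Klf6 (0.31), and 5 fell, led by Klf16 (-0.74). These last counts lie near the shares of all tested genes, 25.9% called higher and 40.9% lower. With libraries centred on 12 pan-epithelial genes the counts became 0 rising and 9 falling, and 8 rising and 1 falling.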
